A study of Mus musculus with 2 samples.

Results

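Collagens and the enzymes that modify them were examined in teratomas, tumours in which transplanted pluripotent stem cells give rise to many differentiated tissues. The members were the genes measured by at least 1 probe set naming no other gene whose current symbol is that of a collagen alpha chain, a lysyl hydroxylase (Plod), the catalytic subunit of prolyl 4-hydroxylase (P4ha), a lysyl oxidase (Lox, Loxl) or a procollagen C-proteinase enhancer (Pcolce), with Serpinh1 left out. This rule found 47 of the 12393 genes measured, 36 collagens and 11 enzymes or enhancers, covered by 75 probe sets; the gene annotation used for names has 57 genes that match it. Of the 47, 44 had a signal above the detection floor on at least 1 array and were compared. The floor, 25.99, is the 90th percentile of the signals of receptors for smell, taste and related senses, taken as silent in these tumours.

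The B6 ES array held RNA of tumours grown from embryonic stem cells of C57BL/6 (B6) mice, and the EiPS array RNA of tumours from EiPS cells (induced pluripotent stem cells), also of C57BL/6 background, which the submitters describe as regressing. Both kinds of cells were placed under the skin of male B6 mice and the tumours were taken out after 6 weeks. Each group had 1 array, which carried a pool of RNA from 2 tumours, so the differences below are those of 2 pools, untested and with no measure of the variation between tumours. Graft and host were of 1 strain, so collagen RNA of host connective tissue and of the graft cannot be told apart, and neither can fewer cells of a type and less RNA per cell. Each array had a 2% trimmed mean signal of 500.2. Marker genes with a probe set were counted if they were above the floor on at least 1 array. This held for 10 of 10 neuronal, 11 of 11 skeletal muscle and 10 of 10 basal keratinocyte genes. It also held for 7 of 8 gut epithelial and 10 of 12 cartilage genes. As 10953 of all 12393 genes passed likewise, these counts do not show which tissues the tumours held. The gut list had a median log2 difference (EiPS less B6 ES) of 1.16. Of 8 pluripotent cell markers, 5 (Pou5f1, Nanog, Zfp42, Esrrb and Tdgf1) passed the floor on the EiPS array alone, so the list's median of 1.63 holds bounds; the others, Sox2, Utf1 and Dppa5a, differed by 0.09, 1.62 and 3.32.

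Collagens are trimers of alpha chains wound into a triple helix. Fibrillar types give tendon, skin and cartilage their tensile strength, type IV forms the network of basement membranes, and other types sit on fibrils, anchor epithelia or span membranes. Inside the cell, prolyl 4-hydroxylases stabilise the helix and lysyl hydroxylases prepare lysines for cross-links. Outside it, propeptides are cleaved, a step that Pcolce proteins speed up, and lysyl oxidases form the cross-links that make fibres insoluble.

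Most members had a higher signal in the EiPS pool, and those furthest apart were the intracellular hydroxylases Plod2, P4ha2 and P4ha1, the basement membrane chains Col4a1 and Col4a2 and the cartilage chains Col2a1 and Col9a1. These 7 of 44 members (15.9%) reached 2-fold, against 5.79% of all 10953 genes compared. In the other direction 1 member, Loxl4, reached 2-fold, against 3.05% of all genes. At 1.5-fold, 18 members were higher and 1 lower, against 15.2% and 9.32% of all genes. By any amount, 37 members were higher and 7 lower, against 56.2% and 43.8% of all genes. The median log2 difference (EiPS less B6 ES) was 0.43 over the members and 0.07 over all genes. The counts were also taken over the 8305 genes with a signal of 100 or more on both arrays, 34 of them members. Of these members 6 (17.6%) were 2-fold or more higher and 0 lower, against 2.91% and 2.73% of such genes. At 1.5-fold the counts were 13 and 0, against 10.1% and 8.6%, and by any amount 30 and 4, against 53.3% and 46.7%. After quantile normalization the same 7 members reached 2-fold higher and 1 reached it lower, against 4.44% and 3.95% of all genes. Of the 37 higher members, 31 were higher under each of the 3 other scalings of the arrays tried. The other 6, which differed by 0.26 or less, turned lower under at least 1 of them: Col1a1, Col4a5, Col17a1, Col9a2, Col9a3 and Pcolce. The 7 lower members were lower under all of these scalings.

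The nearest gauge of measurement noise was how far the probe sets of a gene disagree, an SD of 0.40 on the log2 scale for 3798 genes and of 0.25 over the 19 members that had more than 1 probe set above the floor on both arrays. It leaves out variation between tumours, labelling and arrays. Of the 44 members, 23 were higher and 1 lower by more than the SD of 0.40, against 24.6% and 16% of all genes compared.

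**Figure D1:**
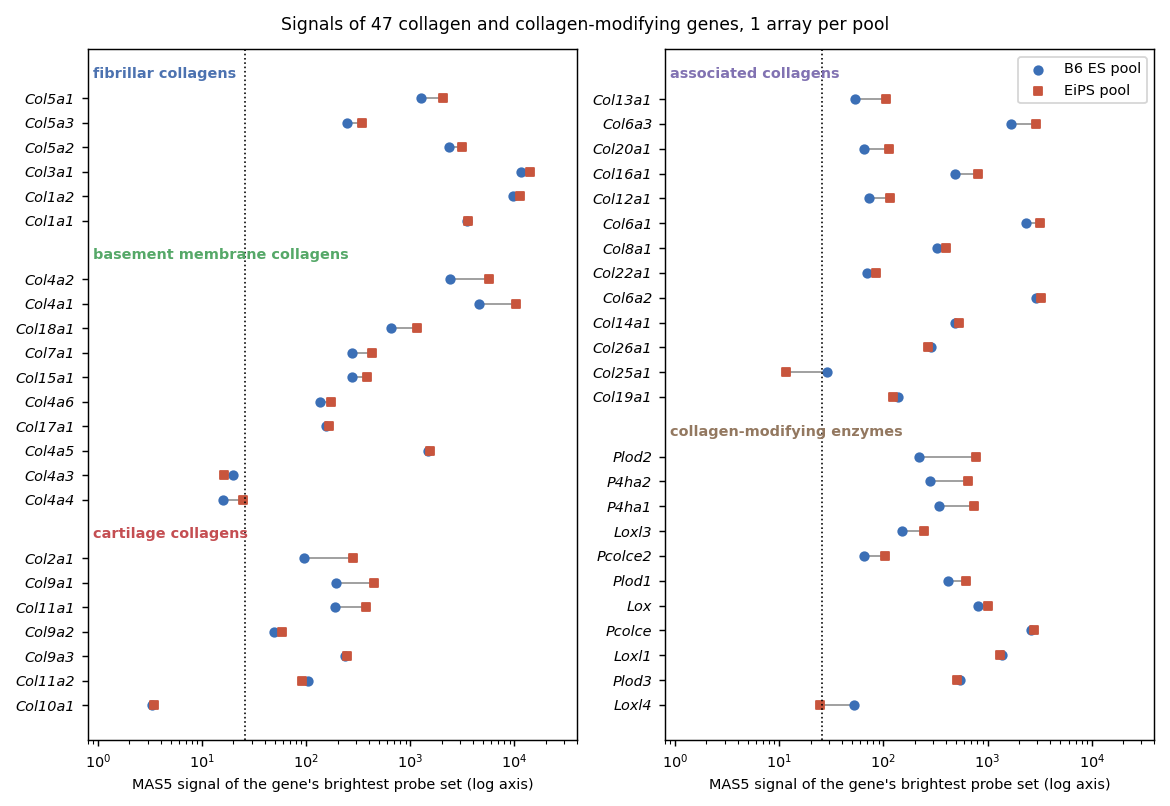
MAS5 signal (x axis, log scale) of each of the 47 members by its brightest probe set, with circles for the B6 ES pool and squares for the EiPS pool, 1 array each. The dotted line is the detection floor of 25.99. The gap between the symbols is widest to the right for Plod2 and Col2a1, while Col1a1, Col4a5 and Pcolce nearly coincide (the order of those 3 turns with the scaling); Col4a3, Col4a4 and Col10a1 lie under the floor on both arrays.

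The fibrillar types II and XI were counted among the cartilage collagens, described below. The fibrillar group held types I, III and V, the main load-bearing chains of skin, bone and vessel walls, and its members differed little. All 6 had a slightly higher signal in the EiPS pool, none by 2-fold, against 56.2% and 5.79% of all genes. Their median log2 difference was 0.35. Col1a1, which with Col1a2 makes type I collagen, the bulk protein of bone and tendon, had a signal of 3471 for B6 ES and 3574 for EiPS. Col1a2 had signals of 9742 and 11264. The type I chains were thus close to equal between the pools, at 0.04 and 0.21 on the log2 scale, a gap of 0.17 beside the SD of 0.40 between probe sets. The order of the chains turned with the probe set: the other ones differed by 0.35 for Col1a1 and 0.04 for Col1a2. After quantile normalization Col1a1 was at 0.09 and Col1a2 at 0.01. Col3a1, the chain of type III collagen in extensible tissues such as vessel walls, had signals of 11565 and 13975, a log2 difference of 0.27. Its other probe set differed by 0.50, and quantile normalization left 0.01 for the brightest.

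Type V collagen, which sits in the core of type I fibrils and limits their width, differed somewhat more. Its main chain Col5a1 had signals of 1279.6 and 2047, 1.60-fold higher in the EiPS pool. The other probe sets of Col5a1 did not show this, with log2 differences of 0.01 and 0.08, so its value depends on the probe set read. Col5a2 was 1.34-fold higher (2367 and 3162), and its other probe set differed by 0.49. Col5a3, a chain of more restricted expression, was 1.39-fold higher (249 and 346).

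The basement membrane collagens covered a range: Col4a1 and Col4a2 were each more than 2-fold higher, and Col18a1, Col7a1 and Col15a1 came next. By their brightest probe sets, Col4a5, Col4a6 and the hemidesmosome collagen Col17a1 differed by less than the SD of 0.40 between probe sets. The other probe set of Col4a6 differed by 0.85. All 8 compared members of the group were higher, 2 of them past 2-fold, and their median was 0.55, though Col4a5 and Col17a1 turned lower under other scalings. Col4a1 and Col4a2 make the type IV collagen found in nearly all basement membranes, and their genes lie head to head. RefSeq (build GRCm38.p6) places the start of Col4a2 on the plus strand and that of Col4a1 on the minus strand of chromosome 8 so that they differ by 21 bases. The 22 bases from start to start are shown because both transcripts, read in opposite directions, begin within them and overlap there. The plus strand is given, at chr8:11312805-11312826, with a GC box in capitals that lies downstream of both starts and so outside the windows before each start that were searched for motifs:
Col4a1/Col4a2: agtgcgcGGGCGGcgtctccaa

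Col4a1 had a signal of 4590.1 for B6 ES and 10393 for EiPS, 2.26-fold higher. Its other probe set, at 1123 and 2493, was higher by 1.15 on the log2 scale, close to the 1.18 of the brightest. Col4a2 had signals of 2396 and 5656, 2.36-fold higher. The neighbours therefore differed between the pools by almost the same factor, with a gap of 0.06 on the log2 scale, and both stayed past 2-fold under all 10 alternative settings.

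The other type IV chains were not 2-fold apart or could not be compared. Col4a5 and Col4a6, the X-linked chains of kidney, skin and smooth muscle basement membranes, have annotated starts 1343 bases apart. Col4a5 had signals of 1468 and 1561, a log2 difference of 0.09, with 0.07 by its other probe set. Col4a6 had signals of 137 and 173, a difference of 0.33, and its other probe set differed by 0.85. Col4a3 and Col4a4, which join Col4a5 in the mature glomerular basement membrane, never reached the floor: Col4a3 gave 19.8 and 16.3 and Col4a4 gave 15.9 and 24.8, so neither has a fold. Of 7 podocyte and kidney markers, 4 were under the floor on both arrays (Nphs1, Umod, Slc12a1 and Cdh16), and the 3 compared had a median of 0.34. Synpo was 2.65-fold higher (194 and 515), Podxl differed by 0.34 and Wt1 passed the floor on the EiPS array alone. The part of these markers' cells in the type IV values was not tested.

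Among the remaining basement membrane collagens, Col18a1, whose C-terminal fragment is endostatin, was 1.81-fold higher (645 and 1169.8), and its other probe set differed by 0.66. Col7a1, the anchoring fibril collagen of the dermal-epidermal junction, was 1.55-fold higher (278 and 431). Col15a1, which lies between basement membranes and nearby fibrils in muscle and vessels, was 1.39-fold higher (275 and 382). Col17a1, a transmembrane collagen of hemidesmosomes, had signals of 155 and 166, a log2 difference of 0.10. Markers of cells that lay down type IV collagen moved as follows, and their part in the Col4a1 and Col4a2 values was not tested. Endothelial markers had a median log2 difference of 0.54 and summed signals of 4166 and 5745. Of 12 such markers, 11 were higher, 1 of them past 2-fold, against 56.2% and 5.79% of all genes. Of 10 genes of parietal yolk sac and endoderm, 8 were higher, with a median of 0.27 and summed signals of 14627 and 20514; the laminin chains Lama1 and Lamb1 stood out in it, at 5.11-fold and 1.91-fold higher, while the endoderm factors Gata4 and Gata6 differed by -0.42 and 0.04. No gene of these lists was under the floor on both arrays. Basal keratinocyte markers, beside Col7a1 and Col17a1, had a median of 0.25, with 8 of 10 higher, none by 2-fold and none under the floor on both arrays (summed signals of 8020 and 9107).

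**Figure D2:**
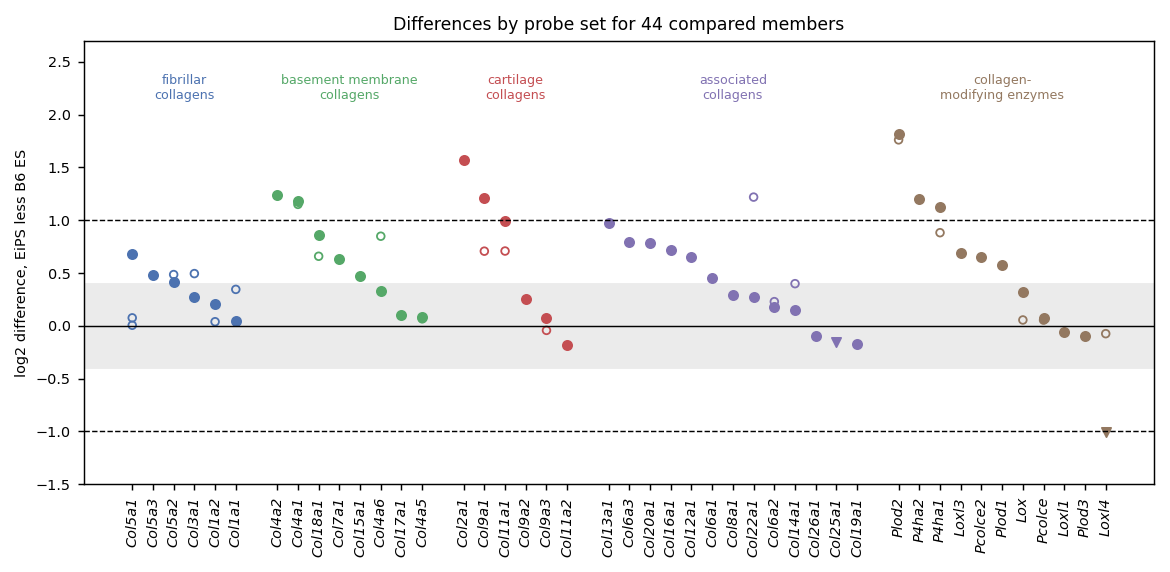
Log2 difference (EiPS less B6 ES, y axis) of the 44 compared members, sorted within groups. Filled symbols are the brightest probe set (triangles: a bound, since 1 array was under the floor) and open circles are the gene's other probe sets, where neither array was under the floor. Dashed lines mark 2-fold and the grey band is the SD of 0.40 between probe sets. The open circles of Plod2 and Col4a1 sit on the filled ones, those of Col5a1 and Col22a1 far from them.

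The cartilage collagens were split between chains that assemble together. Col2a1, the principal collagen of cartilage, had signals of 94.4 and 281, 2.97-fold higher in the EiPS pool. Col9a1 had signals of 195 and 451, 2.32-fold higher, and its other probe set differed by 0.71. Col11a1, a chain that nucleates type II fibrils, followed at 1.99-fold (187 and 372), just inside 2-fold, and its other probe set also differed by 0.71. These chains were higher, but their partners were not to that extent. Type IX collagen, which coats type II fibrils, needs Col9a2 and Col9a3 beside Col9a1. Col9a2 had low signals of 49.3 and 58.8, a difference of 0.26. Col9a3 had signals of 236 and 249, a difference of 0.08, and its second probe set, at -0.04, went the other way; the mean with a further one under the floor was -0.70. The log2 differences of the type IX chains thus spanned 1.14, a range over 3 genes that was not tested.

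Col11a2, the partner of Col11a1 in type XI collagen, was slightly lower, with signals of 104 and 91.8 and a log2 difference of -0.18. Col10a1, the collagen of hypertrophic cartilage, was under the floor on both arrays, at 3.31 and 3.48. Over the 6 compared members the median was 0.62, with 5 higher, 2 of them by at least 2-fold, and 1 lower. Among all genes, 56.2% were higher, 5.79% reached 2-fold higher, and 43.8% were lower. Of the 3 other scalings, quantile normalization alone turned Col9a2 lower, while Col9a3 turned lower with it and with equal array medians. The median depended on the genes that the floor let in: it was 0.99 over 5 genes with a floor of 100 and 0.26 over 7 genes with none.

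Other markers of cartilage did not share a direction. Of the 12 listed chondrocyte genes, 10 were compared, 7 of them higher and 3 lower, with a median of 0.04 and summed signals of 1135 and 1477. Cnmd (chondromodulin) was 4.35-fold higher (64.3 and 279), and Comp at least 2.10-fold higher. Hapln1, the link protein, was lower by 1.19 on the log2 scale (69.4 and 30.4). Acan, the aggrecan core protein, had signals of 61.3 and 49.1, a difference of -0.32, and the regulator Sox9 of 323 and 471, a difference of 0.54. Matn1, a matrilin restricted to cartilage, and Epyc were under the floor on both arrays. Of 6 osteoblast genes with a probe set, 4 were compared, all from low signals (a sum of 169 and 241), with Ibsp and Mepe under the floor on both arrays. Alpl and Sp7 differed by 0.16 and 0.25, while Dmp1 and Phex were under the floor in the B6 ES pool and so higher by at least 1.70-fold for Dmp1 and at least 1.14-fold for Phex. The part of these cells in the cartilage collagen values was not tested.

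Among the associated collagens, no member of 13 reached 2-fold, against 5.79% of all genes higher and 3.05% lower. By any amount 10 were higher and 3 lower, against 56.2% and 43.8% of all genes. The median was 0.29 (0.69 when probe sets of a gene were averaged). Type VI collagen, whose beaded filaments link cells to the surrounding matrix, had all of its measured chains higher. Col6a3, the longest chain, was 1.74-fold higher (1692 and 2940.4). Col6a1 was 1.37-fold higher (2338 and 3194). Col6a2 was 1.13-fold higher (2895 and 3279), and its other probe set differed by 0.23. Their log2 differences spanned 0.62, a range over 3 genes that was not tested and does not show that the chains differ, given the SD of 0.40 between probe sets of 1 gene.

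Several collagens that sit on the surface of fibrils were also higher by less than 2-fold. Col16a1 was 1.65-fold higher (491 and 809), Col12a1, of tendon and fascia, 1.57-fold (73.3 and 115) and Col14a1 1.11-fold (483 and 537), with 0.40 on the log2 scale by its other probe set. Col20a1 was 1.72-fold higher (65.7 and 113). Its other probe sets passed the floor on the EiPS array alone, at 47.5 and 68.6. With all of them averaged, the B6 ES mean was under the floor and the difference at least 1.46 on the log2 scale. Col22a1, which marks tissue junctions such as that of muscle with tendon, was 1.21-fold higher (69.9 and 84.3), while its dimmer probe set gave a log2 difference of 1.22 (48.5 and 113). Col19a1 was slightly lower, by 0.18 on the log2 scale (139 and 123).

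The network collagen Col8a1, of vessel walls and the cornea, had signals of 327 and 400.4, a log2 difference of 0.29. Its other probe set was under the floor on both arrays (1.15 and 20.4). Averaging it in put the B6 ES mean under the floor and moved the difference to at least 1.80. Of the transmembrane collagens, Col13a1, of cell-matrix and neuromuscular junctions, came closest to 2-fold in this group, at 1.97-fold higher from low signals (53.5 and 105). Col25a1, made mainly by neurons, had a signal of 28.9 for B6 ES and 11.6 for EiPS; the second is under the floor, so it was at least 1.11-fold lower. Col26a1 had signals of 288 and 269, a difference of -0.10. Neuronal markers moved beside Col25a1, and their part in it was not tested: all 10 were lower, with a median of -0.98 and summed signals of 21867 and 10043, none under the floor on both arrays.

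Fibroblast markers, set beside the fibrillar and associated collagens, had a median of 0.33. Of the 11 markers, 8 were higher and 3 lower, none by 2-fold, and the summed signals were 9579 and 10760.1. Among all genes, 56.2% were higher and 43.8% lower. Pdgfrb, a receptor of perivascular and stromal cells, was 1.86-fold higher and Fap 1.71-fold, while Pdgfra and Thy1 differed by -0.35 and -0.20. No fibroblast marker was under the floor on both arrays. Smooth and skeletal muscle markers went the opposite way to most collagens: all 10 and all 11 were lower, with medians of -1.24 and -2.31 and summed signals of 20436 against 12882 and of 55840 against 21938. Their part in the collagen values was not tested.

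The hydroxylases that act on collagen inside the cell included the member with the largest difference of all. Plod2, a lysyl hydroxylase that modifies the telopeptides where cross-links form, had a signal of 221 for B6 ES and 777 for EiPS, 3.51-fold higher. Its second probe set, at 129 and 438, was higher by 1.76 on the log2 scale, next to 1.81 for the brightest. The other lysyl hydroxylases were not apart to this extent. Plod1 was 1.49-fold higher (414 and 618). Plod3, which can also add glucose to collagen, was close to equal, with signals of 543 and 507 and a log2 difference of -0.10. The 3 lysyl hydroxylases thus spanned 1.91 on the log2 scale.

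The catalytic subunits of prolyl 4-hydroxylase, the enzyme that makes the helix stable at body temperature, differed alike. P4ha1 had signals of 339 and 739, 2.18-fold higher, and its other probe set was higher by 0.88. P4ha2 had signals of 282 and 647, 2.30-fold higher. The subunits lay 0.07 apart on the log2 scale. P4hb, the protein disulfide isomerase that serves as their shared beta subunit and has other duties in the endoplasmic reticulum, was only 1.18-fold higher. P4ha1 came just under 2-fold with equal array medians (a log2 difference of 0.999) and on the scale of log2(signal + 64) (0.995).

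RefSeq windows of 250 bases before the annotated start (build GRCm38.p6) were available for 34 members, 5 of them among the 7 that were at least 2-fold higher. They were searched on both strands for 4 motifs, none of which contains another. The core of the hypoxia response element, ACGTG, is present in 16.6% of all 32851 windows and in 7 of the 34 members. Of the 5 higher members with a window, the prolyl 4-hydroxylase genes P4ha1 and P4ha2 hold it. Their windows are shown with each match in capitals, beside that of Col1a2, which holds it at 2 places although its signals differed by only 0.21. A match is a run of letters, not a shown binding site. The windows lie on the plus strand at chr10:59323046-59323295 for P4ha1, chr11:54100674-54100923 for P4ha2 and chr6:4505368-4505617 for Col1a2, and the start of the gene follows the last base:
P4ha1: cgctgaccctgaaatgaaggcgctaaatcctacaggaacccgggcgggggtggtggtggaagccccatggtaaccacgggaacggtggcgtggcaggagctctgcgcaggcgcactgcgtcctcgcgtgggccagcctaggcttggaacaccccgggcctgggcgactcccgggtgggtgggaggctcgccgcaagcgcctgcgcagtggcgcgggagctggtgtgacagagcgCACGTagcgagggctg
P4ha2: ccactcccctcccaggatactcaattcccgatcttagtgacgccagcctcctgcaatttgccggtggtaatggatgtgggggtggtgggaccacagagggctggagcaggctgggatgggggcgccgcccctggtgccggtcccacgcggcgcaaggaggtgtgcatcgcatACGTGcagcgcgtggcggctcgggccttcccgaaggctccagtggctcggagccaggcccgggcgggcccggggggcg
Col1a2: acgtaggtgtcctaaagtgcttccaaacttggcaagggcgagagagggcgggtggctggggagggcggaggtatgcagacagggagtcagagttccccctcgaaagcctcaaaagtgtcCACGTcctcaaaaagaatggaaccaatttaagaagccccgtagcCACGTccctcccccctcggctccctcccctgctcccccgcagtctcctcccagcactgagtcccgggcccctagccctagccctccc

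The GC box, searched as GGGCGG, is present in 32.7% of all windows, in 21 of the 34 members and in 3 of the 5, namely Col4a2, P4ha1 and P4ha2. The second promoter element, searched as the letters CCAAT, is present in 33.8% of all windows, in 13 of the 34 members and in Col4a1, Col4a2 and Col9a1 of the 5. The TATA box, for which the search letters were TATAAA, is present in 12.4% of all windows and in 6 of the 34 members, none of them among the 5.

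Of the lysyl oxidases and enhancers, which act outside the cell, none was 2-fold higher, where 5.79% of all genes were. Lox, the founding lysyl oxidase, was 1.25-fold higher (813 and 1015), and another probe set differed by 0.06. Loxl1, which also cross-links elastin, had signals of 1386 and 1328, a log2 difference of -0.06. Loxl3 was 1.62-fold higher (151 and 244). Loxl4 was the 1 member lower by 2-fold: its brightest probe set had signals of 52.2 and 24.9, the second under the floor, and so it was at least 2.01-fold lower. Its other probe set did not show this, at 35.7 and 33.9, and a higher floor (the 98th percentile of receptors taken as silent) left a difference of -0.09. Pcolce, the enhancer of procollagen C-proteinase, was nearly equal (2628 and 2769, a difference of 0.07), and Pcolce2 was 1.57-fold higher from low signals (65.6 and 103). Over the 11 members of the enzyme group, 3 reached 2-fold higher and 1 reached it lower, against 5.79% and 3.05% of all genes. By any amount 8 lay above 0 and 3 below, against 56.2% and 43.8% of all genes, with the median at 0.58.

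No other gene of collagen biosynthesis on the list reached 2-fold, against 5.79% of all genes higher and 3.05% lower. Of 23 listed, 16 had a probe set of their own and 14 were compared, with a median of 0.25. By any amount 10 were higher and 4 lower, against 56.2% and 43.8% of all genes. P3h3 and P3h4, members of the prolyl 3-hydroxylase family, were 1.73-fold and 1.53-fold higher, and Bmp1, the procollagen C-proteinase, 1.58-fold. Tmem38b, an ion channel of the endoplasmic reticulum, was lower by 0.69 on the log2 scale. The vesicle coat gene Sec23a and the export receptor Mia3, which serve procollagen transport, differed by -0.40 and -0.23. Tll1 and Tll2, relatives of Bmp1, were under the floor on both arrays.

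Genes that bind collagen or shape fibrils had a median of 0.49. Of 17 compared, 15 were higher, 3 of them past 2-fold, against 56.2% and 5.79% of all genes. Fmod (fibromodulin), a proteoglycan on the fibril surface that guides lysyl oxidase, was 3.36-fold higher (223 and 749). Fn1 (fibronectin) was 2.05-fold and the collagen receptor kinase Ddr2 2.03-fold higher. Lum (lumican) was 1.91-fold higher. The integrin subunit Itgb1, shared by the collagen-binding integrins, was lower by 0.53 on the log2 scale. Of the genes that break collagen down, 8 of 9 were compared, with a median of 0.53. In this list 6 were higher and 2 lower, against 56.2% and 43.8% of all genes. The collagenase Mmp13 was at least 2.51-fold higher, from 1.13 in the B6 ES pool to 65.3, and the gelatinase Mmp9 1.74-fold. The peptidases Prep and Pepd, which act on proline-containing peptides, were lower by 0.93 and 0.48 on the log2 scale, and the interstitial collagenase Mmp1a was under the floor on both arrays. Macrophages, another source of proteases, had markers with a median of -0.05 (4 of 9 higher, 5 lower, Cd163 under the floor on both arrays, summed signals of 12036 and 17386). Cd68 was 2.09-fold higher (372 and 778) and Lyz2 1.93-fold (4103 and 7924), while the lowest marker, Itgam, differed by -0.30. The part of macrophages in these values was not tested.

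**Figure D3:**
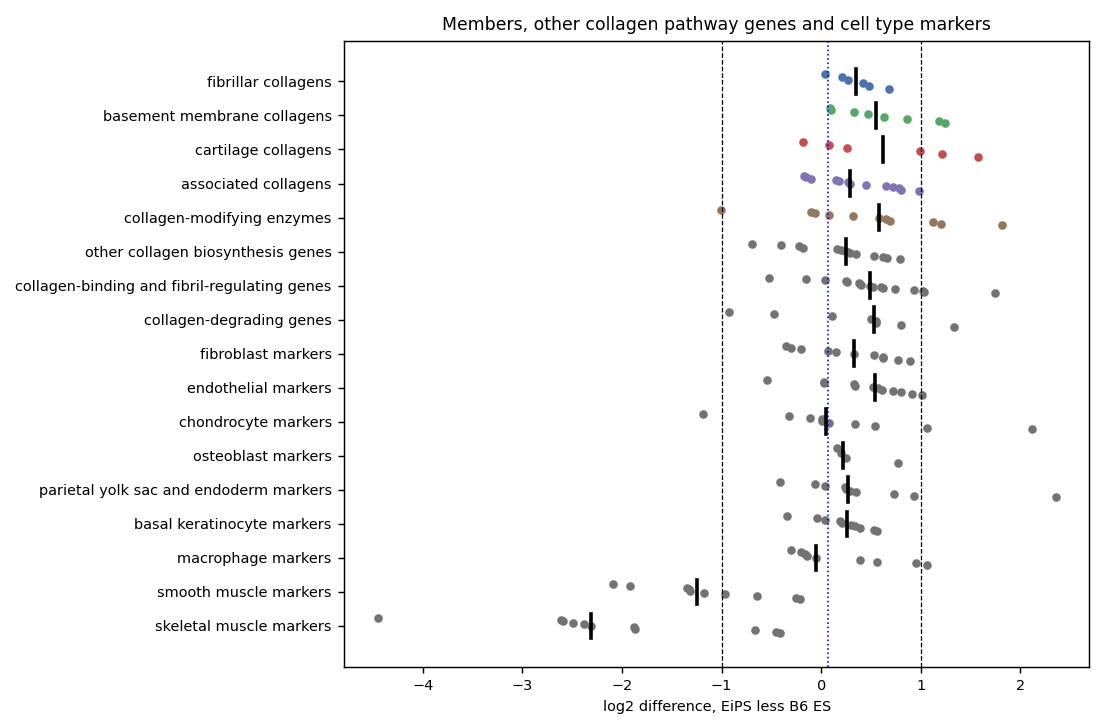
Log2 difference (EiPS less B6 ES, x axis) of single genes in the 5 member groups (coloured), 3 further collagen pathway lists and 9 lists of cell type markers (grey), with the median of each as a black bar. Dashed lines mark 2-fold and the blue dotted line the median of all genes, 0.07. The cartilage collagens lie in 2 clumps and the chondrocyte markers around 0, while all muscle markers lie to the left of 0.

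**Figure D4:**
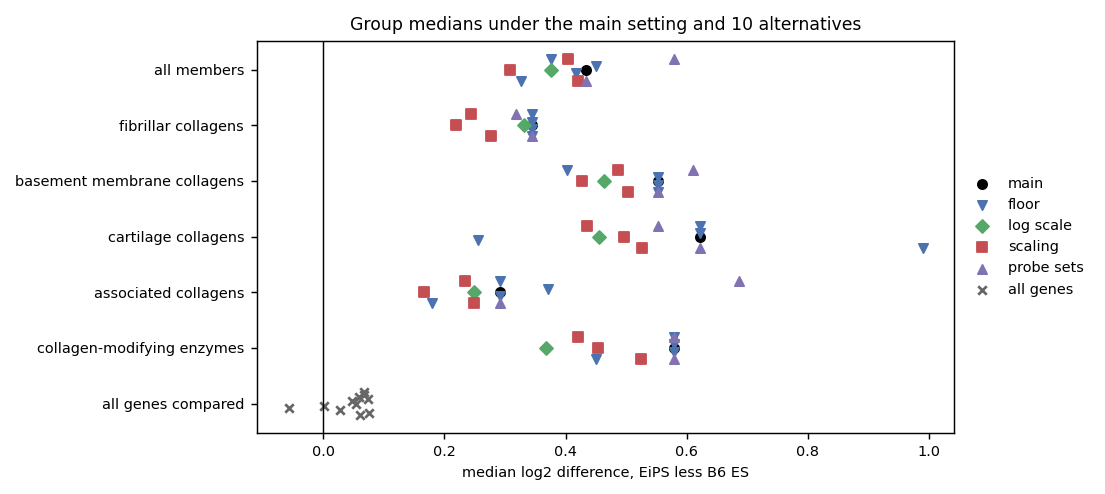
Median log2 difference (x axis) of the members and their 5 groups under the main setting and the 10 alternatives, with the median of all genes compared in the bottom line. All group medians stay to the right of 0, and that of the cartilage collagens has the widest range, from 0.26 to 0.99, both set by the floor.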

How the data were processed

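RNA from 2 pooled tumours per group was hybridised to 1 Affymetrix mouse array each, from 5 µg of total RNA per the labels' protocols. The authors deposited a linear intensity for each probe set, made with Affymetrix Expression Console and MAS5 per the submitters' processing notes. No version is given in the sources used here. By the values, each array had been scaled to the same trimmed mean, so signals are relative amounts. MAS5 takes off the signal of mismatch probes, and dim probe sets are noisy for that reason.

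Of 22690 probe sets, 20380 had 1 gene symbol, 691 several, 1555 none and 64 were controls. Symbols were updated by Entrez identifier with a RefSeq table (GRCm38.p6); 20351 matched and 29 kept the annotation's symbol. Each gene was read from its brightest probe set (mean log2 signal over both arrays). The floor of 25.99 was the 90th percentile of 71 probe sets of olfactory, vomeronasal, taste and trace amine receptors. Above it lay 79.05% of probe sets for B6 ES and 81.9% for EiPS. Signals under it were set to it, so that such a difference is a bound ("at least"), and 1440 genes under it on both arrays were not compared. Python 3.11.15 was used, and the scripts were tested on simulated data. The number of arrays limits the precision, and no p-value was computed.

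Members, their groups, 3 further pathway lists and 13 marker lists were chosen with earlier results of these data known. All compared members are named. In other lists the rule names up to 4 genes with the largest difference. Some genes that it covers, such as Mmp2, Fst, Twist2 and Dpt, are not given above. Acan, Gata6, Thy1, Pdgfra, P4hb, Sec23a, Mia3, Itgb1 and Pepd were among those added after their values were seen. The alternatives were 4 other floors (the 75th and 98th percentile, 100, none), an added 64 before taking logs, 3 scalings (quantile, equal medians, loess of span 0.4), averaging all probe sets of a gene, and dropping probe sets marked as shared.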

Additional observations from a re-analysis of the deposited data

How the results depend on the processing

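All group medians kept their sign under the 10 alternatives and moved by less than the SD of 0.40 between probe sets. That SD is of single probe sets and is a loose gauge for a median over genes. It exceeds the main medians of the fibrillar collagens (0.35), associated collagens (0.29) and other biosynthesis genes (0.25). Over all members the median ranged from 0.31 to 0.58, for fibrillar collagens from 0.22 to 0.35, basement membrane collagens from 0.40 to 0.61, cartilage collagens from 0.26 to 0.99, associated collagens from 0.17 to 0.69 and enzymes from 0.37 to 0.58. For the other biosynthesis genes it ranged from 0.11 to 0.27, for collagen-binding genes from 0.37 to 0.54 and for degrading genes from 0.40 to 0.55. The number of members at least 2-fold higher ranged from 5 to 8 (7 in the main setting). Col4a1, Col4a2, Col2a1, Plod2 and P4ha2 were at least 2-fold higher under each alternative. The number at least 2-fold lower was 1 in the main setting. Raising the floor to the 98th percentile gave 0, as did a floor of 100, log2(signal + 64) and the mean over probe sets. Loxl4, the member counted in the main setting, was under the floor of 100 on both arrays. It differed by -0.09 with the 98th percentile, -0.39 with log2(signal + 64) and -0.57 with the mean over probe sets. No floor gave 2, Loxl4 at -1.07 and Col25a1 at -1.32. Single members moved by more than the SD in 15 cases (11 members), and none at least 2-fold apart changed direction. With the mean over probe sets, which counts dim ones fully, Col8a1 came to at least 1.80 and Col20a1 to at least 1.46. Col5a1 came to 0.25 and Col9a3 to -0.70. Signals near the floor of 25.99, such as those of Loxl4 and Col25a1, limit what can be said of those genes. The median of all genes, 0.07 in the main setting, was -0.06 with equal medians. No paired analysis was possible because each group has 1 array, and for that reason no array could be left out.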
